A study of Mus musculus with 10 samples.

Results

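The VEGF axis and the genes of the vascular endothelium were followed in the gastrocnemius of smoke-exposed mice, through 10 genes of the 49315 in the count table. They are the ligands *Vegfa* and *Vegfb*, the receptors *Kdr*, *Flt1* and *Tek*, the junction proteins *Pecam1* and *Cdh5*, the nitric oxide synthase *Nos3*, the flow-responsive transcription factor *Klf2* and the stretch-gated channel *Piezo1*. The genes were taken by symbol, and *Piezo1* was put on the list because of its difference between the genotypes in these same libraries, so that its difference is described here without a test. All 10 passed the filter on low counts, with between 150 and 10645 counts in a mouse, and the other 9 were tested between the genotypes among 14714 genes.

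RNA was sequenced from the gastrocnemius of 10 male mice of a C57BL6J background, 5 AHRfl and 5 AHRmko. Both genotypes carried floxed alleles of AHR, the aryl hydrocarbon receptor, which regulates transcription when constituents of tobacco smoke bind it. AHRmko mice also carried HSA-MCM, a tamoxifen-activated Cre recombinase under the human ACTA1 promoter, which is active in skeletal myofibres, and AHRfl mice were littermates without Cre. All 10 mice were exposed to cigarette smoke for 16 weeks, on 5 days per week, at 220 ± 80 mg/m3. Smoke began 4 weeks after tamoxifen and muscle was taken 72 h after the last exposure, according to the sample labels. Neither the ages nor the litters of these mice are given in the labels. The question for these genes is whether their levels in smoke-exposed muscle depend on AHR in the myofibre. The paper describes AHR activation as back at baseline by the time of harvest. Only AHRmko mice carried Cre, so loss of AHR and presence of Cre cannot be told apart.

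VEGF-A is released by myofibres and other cells and acts on capillary endothelium through VEGFR2, the product of *Kdr*, while VEGFR1, the product of *Flt1*, binds VEGF-A and VEGF-B and limits the ligand that reaches VEGFR2. *Tek* encodes TIE2, the receptor for angiopoietins, which stabilises vessels. *Pecam1* and *Cdh5* encode adhesion proteins of endothelial junctions, *Nos3* the endothelial enzyme that makes nitric oxide, *Klf2* a transcription factor induced by laminar flow, and *Piezo1* a cation channel opened by membrane tension. *Piezo1* is expressed in endothelium and also in other cells of muscle.

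Total counts per mouse were between 30393035 and 37954388. Values are CPM, counts scaled to a common library size after TMM normalization, and a floor of 3 counts corresponded to between 0.079 and 0.0987 CPM before that normalization. The targeted gene, *Ahr*, was at 2.02 ± 0.681 CPM (SD, n = 5) in AHRfl and 1.58 ± 0.443 CPM (SD, n = 5) in AHRmko muscle, a log2 fold change of -0.35 (edgeR adjusted p = 0.844), with overlapping groups. Adjusted p-values given as edgeR's are from its quasi-likelihood test over all genes tested. The counts cover all exons, so they do not measure the deleted exon alone. Across all genes tested, 1 gene (0.0068%), *Esr1*, had an adjusted p under 0.05, and it was higher in AHRmko muscle. The MerCreMer transgene, carried by AHRmko mice alone, holds sequence derived from *Esr1*, so counts of the endogenous gene and of the transgene cannot be told apart here. A low number of *Xist* counts, between 44 and 75, was present in 5 libraries (AHRfl mice 11, 15 and 33, AHRmko mice 9 and 22), and between 0 and 3 counts were found in the other 5, whereas all 10 held at least 4329 counts of Y-linked genes.

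Promoter sequences are shown because 5 of these genes varied together from mouse to mouse while no relation of *Klf2* or *Piezo1* with them passed the test, as described below. RefSeq sequences of GRCm38.p6, each with 250 bases before the transcription start and 50 bases from it, matched 7 of the 10 genes by symbol and gave 8 sequences, since *Vegfa* has an entry for each of 2 starts. *Cdh5*, *Pecam1* and *Nos3* had no entry. The sequences of 7 genes are printed 5′ to 3′ on the gene's strand, and capitals mark the GC box (GGGCGG on either strand), the element bound by Sp1-type factors. Overlapping GC boxes were counted separately.
Kdr (chr5:75978406-75978705, minus strand): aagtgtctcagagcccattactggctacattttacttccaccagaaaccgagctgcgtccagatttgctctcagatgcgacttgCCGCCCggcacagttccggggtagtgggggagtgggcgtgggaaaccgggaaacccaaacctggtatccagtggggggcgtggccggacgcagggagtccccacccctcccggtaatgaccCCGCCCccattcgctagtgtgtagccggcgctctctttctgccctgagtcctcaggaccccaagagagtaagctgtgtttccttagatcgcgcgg
Flt1 (chr5:147725962-147726261, minus strand): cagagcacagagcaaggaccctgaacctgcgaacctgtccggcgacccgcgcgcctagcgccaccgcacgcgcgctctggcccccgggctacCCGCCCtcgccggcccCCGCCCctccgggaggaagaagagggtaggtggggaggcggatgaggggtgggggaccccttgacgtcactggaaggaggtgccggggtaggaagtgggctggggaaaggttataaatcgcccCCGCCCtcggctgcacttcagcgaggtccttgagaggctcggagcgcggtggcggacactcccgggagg
Tek (chr4:94739039-94739338, plus strand): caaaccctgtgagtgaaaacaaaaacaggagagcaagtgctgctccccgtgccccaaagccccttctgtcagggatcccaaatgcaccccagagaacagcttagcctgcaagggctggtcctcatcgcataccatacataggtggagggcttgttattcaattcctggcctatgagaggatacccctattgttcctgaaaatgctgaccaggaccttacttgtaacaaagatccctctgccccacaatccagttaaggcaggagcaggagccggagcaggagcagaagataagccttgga
Klf2 (chr8:72318812-72319111, plus strand): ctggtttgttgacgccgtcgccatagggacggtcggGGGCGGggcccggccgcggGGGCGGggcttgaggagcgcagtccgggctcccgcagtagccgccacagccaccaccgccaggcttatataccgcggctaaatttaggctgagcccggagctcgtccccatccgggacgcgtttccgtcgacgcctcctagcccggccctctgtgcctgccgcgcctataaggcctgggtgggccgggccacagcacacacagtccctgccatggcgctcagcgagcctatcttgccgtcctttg
Piezo1 (chr8:122551280-122551579, minus strand): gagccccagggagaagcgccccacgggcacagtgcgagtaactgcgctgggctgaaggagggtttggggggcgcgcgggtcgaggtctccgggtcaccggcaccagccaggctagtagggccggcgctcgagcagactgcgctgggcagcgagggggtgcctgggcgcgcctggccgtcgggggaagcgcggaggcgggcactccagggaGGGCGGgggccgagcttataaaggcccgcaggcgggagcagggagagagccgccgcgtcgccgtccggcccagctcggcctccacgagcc
Vegfa (chr17:46032328-46032627, minus strand): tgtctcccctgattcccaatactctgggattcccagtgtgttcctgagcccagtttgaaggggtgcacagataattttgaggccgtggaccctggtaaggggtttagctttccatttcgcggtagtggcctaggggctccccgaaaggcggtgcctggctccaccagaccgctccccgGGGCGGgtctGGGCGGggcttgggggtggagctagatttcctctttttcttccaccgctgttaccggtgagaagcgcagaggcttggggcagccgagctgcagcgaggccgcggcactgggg
Vegfb (chr19:6987602-6987901, minus strand): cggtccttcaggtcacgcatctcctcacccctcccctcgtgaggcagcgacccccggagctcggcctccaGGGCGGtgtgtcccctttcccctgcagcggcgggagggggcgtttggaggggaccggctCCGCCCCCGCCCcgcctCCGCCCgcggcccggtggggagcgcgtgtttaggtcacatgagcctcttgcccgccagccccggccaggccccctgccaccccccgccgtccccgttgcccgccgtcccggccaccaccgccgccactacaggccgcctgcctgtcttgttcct

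The GC box was found in 7 of the 8 sequences, those with a GC content of 59.33% to 75.33%, and in 35.7% of 32851 promoters of this length. *Tek* was the exception, with 0 GC boxes and a GC content of 52%, close to the median of 52.67% over all promoters, whereas *Vegfb* held 4 GC boxes, *Flt1* 3, *Kdr*, *Klf2* and *Vegfa* (the start printed) 2 each, and *Piezo1* and the second *Vegfa* start 1 each. The ETS core GGAAG, on either strand, was found in 5 of the 8 sequences and in 71.4% of all promoters. It occurred 3 times in *Flt1*, 2 times at the second *Vegfa* start, and 1 time each in *Kdr*, *Piezo1* and the *Vegfa* start printed, and it did not occur in *Tek*, *Klf2* or *Vegfb*. The xenobiotic response element of AHR, TNGCGTG on either strand, did not occur in any of the 8 sequences, and 5.07% of all promoters hold it. It is the longest of these patterns, and its shorter core GCGTG was not searched. The hypoxia response core ACGTG, found in 19.6% of all promoters, occurred once, at the second *Vegfa* start. The window of this start (chromosome 17, 46025114 to 46025413) is not printed. It lies inside the gene, whose 5′ end is at 46032369, and whether the match falls in an exon was not examined. These letters and the choice to mark the GC box were set after the data had been seen, the matches are descriptions of short windows, and no binding was measured.

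On a scale per length (RPKM, CPM divided by the exon length in kb), the ligands stood well above the endothelial genes. The mean level over the 10 mice was 59.6 ± 10.1 RPKM (SD, n = 10) for *Vegfa* and 52.5 ± 6.2 for *Vegfb*, and the ranges of the mice overlapped. *Cdh5* followed at 11.9 ± 3.17 RPKM and *Pecam1* at 8.54 ± 1.47, again with overlapping ranges. *Klf2* (5.08 ± 2.34 RPKM), *Flt1* (4.21 ± 0.883), *Nos3* (3.44 ± 0.565), *Kdr* (3.15 ± 0.863), *Tek* (2.65 ± 0.644) and *Piezo1* (1.85 ± 0.413) came next, and each of them overlapped with its neighbours in this order. The defining endothelial genes *Pecam1*, *Cdh5*, *Kdr* and *Tek* were thus present in every library, with at least 302 counts, in a tissue where *Acta1*, the skeletal alpha-actin of all myofibres, was at 21799.5 CPM or higher in AHRfl mice. In bulk muscle, fewer endothelial cells and less RNA per endothelial cell cannot be told apart.

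**Figure D1:**
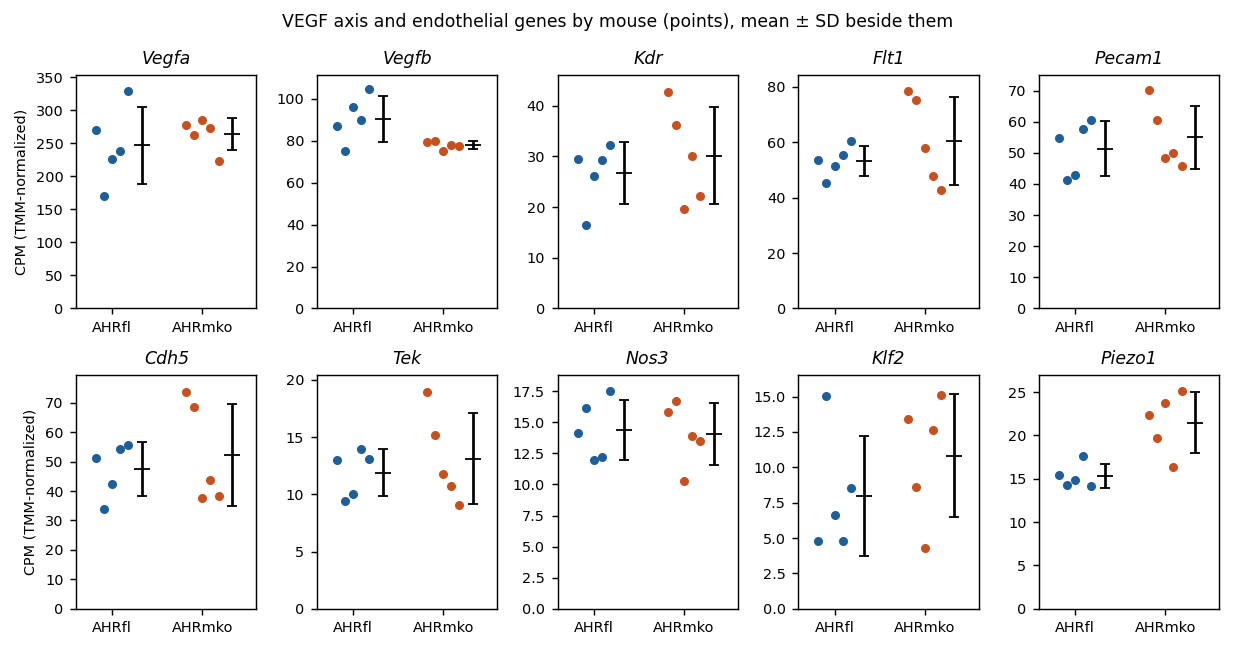
Level of each of the 10 genes in CPM (vertical axes, TMM-normalized, starting at 0) in AHRfl (blue) and AHRmko (orange) mice, 1 point per mouse, with the mean and SD of 5 mice beside the points. The groups overlap for every gene, *Piezo1* only through AHRmko mouse 22 and AHRfl mouse 15, and *Vegfb* has a narrow spread in AHRmko mice.

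The ligands did not pass the test between genotypes. *Vegfa* (chromosome 17, 46016993 to 46032369, minus strand, GRCm38) was at 270.2, 170.5, 227, 238 and 329 CPM in AHRfl mice 11, 12, 13, 15 and 33, and at 277, 262, 285, 272 and 222 CPM in AHRmko mice 8, 9, 19, 22 and 34. The AHRfl mice held both the lowest and the highest level, and all AHRmko mice lay between them. The means were 247 ± 58.4 CPM (SD, n = 5) in AHRfl and 264 ± 24.6 CPM (SD, n = 5) in AHRmko muscle, a log2 fold change of 0.10 (standard error, SE, 0.144, 95% interval -0.22 to 0.41, edgeR adjusted p = 0.939). Its sign rested on AHRfl mouse 12, without which the log2 fold change was -0.01. It was 0.03 with a slow-fibre covariate (the mean log2 CPM of 6 slow-fibre genes), 0.01 with the endothelial covariate described below and 0.17 with a covariate for the presence of *Xist* counts.

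*Vegfb* (chromosome 19, 6982473 to 6987651, minus strand), a ligand of VEGFR1, was at 86.9, 75.3, 96.3, 89.7 and 105 CPM in AHRfl mice and at 79.2, 80.0, 75.3, 78.2 and 77.5 CPM in AHRmko mice, in the same order of mice. In 4 of the 5 AHRfl mice the level was above that of every AHRmko mouse, and AHRfl mouse 12 lay at the bottom of the AHRmko range. The means were 90.6 ± 11 CPM (SD, n = 5) and 78.0 ± 1.80 CPM (SD, n = 5), a log2 fold change of -0.22 (SE 0.0787, 95% interval -0.38 to -0.05). The unadjusted p was 0.0168 and the adjusted p 0.665 by edgeR, so the difference did not pass, and 6.61% of all genes tested had an unadjusted p under 0.05. The log2 fold change stayed between -0.28 and -0.16 with each mouse left out in turn. Per length, the ratio of *Vegfa* to *Vegfb* was 1.01 ± 0.154 (SD, n = 5) in AHRfl and 1.27 ± 0.127 (SD, n = 5) in AHRmko mice, ranging from 0.848 in AHRfl mouse 12 to 1.42 in AHRmko mouse 19, with overlapping groups. This ratio was not tested.

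The VEGF receptors were spread most widely in the AHRmko mice. *Kdr* (chromosome 5, 75932827 to 75978458, minus strand) was at 29.5, 16.5, 26.2, 29.2 and 32.2 CPM in AHRfl mice 11, 12, 13, 15 and 33, and at 42.7, 36.3, 19.7, 30.1 and 22.1 CPM in AHRmko mice 8, 9, 19, 22 and 34. AHRmko mice 8 and 9 exceeded every AHRfl mouse, while AHRmko mice 19 and 34 lay below 4 of the 5 AHRfl mice. The log2 fold change was 0.18 (SE 0.241, 95% interval -0.36 to 0.71, edgeR adjusted p = 0.931).

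*Flt1* (chromosome 5, 147561604 to 147726011, minus strand) was at 53.7, 45.3, 51.4, 55.4 and 60.5 CPM in AHRfl mice and at 78.7, 75.1, 57.8, 47.8 and 42.8 CPM in AHRmko mice. Mice 8 and 9 were again above the AHRfl range, and mouse 34 was below it. The log2 fold change was 0.18 (SE 0.162, 95% interval -0.17 to 0.54, edgeR adjusted p = 0.881). *Tek* (chromosome 4, 94739289 to 94874976, plus strand), the angiopoietin receptor, was at 13, 9.43, 9.99, 14 and 13.1 CPM in AHRfl mice and at 19, 15.1, 11.7, 10.8 and 9.03 CPM in AHRmko mice. Its log2 fold change was 0.14 (SE 0.192, edgeR adjusted p = 0.928). Per length, the ratio of *Flt1* to *Kdr* was 1.38 ± 0.259 (SD, n = 5) in AHRfl and 1.39 ± 0.344 (SD, n = 5) in AHRmko mice.

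The junction genes had the same order of mice at the top. *Pecam1* (chromosome 11, 106654217 to 106750628, minus strand) was at 54.8, 41.2, 42.9, 57.6 and 60.5 CPM in AHRfl mice and at 70.2, 60.6, 48.5, 50.01 and 45.7 CPM in AHRmko mice. *Cdh5* (chromosome 8, 104101625 to 104144511, plus strand), which encodes VE-cadherin, was at 51.3, 33.9, 42.3, 54.3 and 55.5 CPM in AHRfl mice and at 73.7, 68.4, 37.8, 43.7 and 38.2 CPM in AHRmko mice. Both were highest in AHRmko mouse 8, then in mouse 9, and both were lowest in AHRfl mouse 12. The log2 fold changes were 0.10 for *Pecam1* (95% interval -0.21 to 0.40, edgeR adjusted p = 0.934) and 0.14 for *Cdh5* (95% interval -0.36 to 0.65, edgeR adjusted p = 0.943).

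The small positive differences of the endothelial genes changed sign in some of the other fits. Without AHRmko mouse 8, the log2 fold changes of *Pecam1*, *Cdh5* and *Tek* were -0.01, -0.01 and -0.03, and those of *Kdr* and *Flt1* were 0.02 and 0.07. Over all mice left out in turn, *Kdr* ran from 0.02 to 0.30 and *Flt1* from 0.07 to 0.28, and without AHRfl mouse 12 the value of *Kdr* was 0.04. With the slow-fibre score as the covariate the values were 0.10 for *Kdr*, 0.15 for *Flt1*, 0.04 for *Pecam1*, 0.09 for *Cdh5* and 0.08 for *Tek*. With a covariate for *Xist* counts, *Kdr* was at 0.26, *Flt1* at 0.21, *Pecam1* at 0.16, *Cdh5* at 0.23 and *Tek* at 0.20. With endothelial content as a covariate (the mean log2 CPM of 14 capillary endothelial genes that are not among the 10), the fitted values of all 5 genes were below 0, *Kdr* at -0.02, *Flt1* at -0.02, *Pecam1* at -0.05, *Cdh5* at -0.10 and *Tek* at -0.08. These 14 genes mark the same cells as the 5, and the cause of the change was not tested.

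*Nos3* (chromosome 5, 24364810 to 24384474, plus strand) had almost the same level in both genotypes. It was at 14.1, 16.1, 12, 12.2 and 17.6 CPM in AHRfl mice and at 15.9, 16.7, 10.2, 13.9 and 13.5 CPM in AHRmko mice, and the AHRfl mice spanned most of the range of the AHRmko mice. The log2 fold change was -0.03 (SE 0.139, 95% interval -0.34 to 0.27, edgeR adjusted p = 0.980), and its sign changed without AHRfl mouse 12 (0.01), AHRfl mouse 33 (0.05) or AHRmko mouse 19 (0.06). Exons of *Gm15587* and *Atg9b* on the opposite strand cover 25.2% and 7.12% of its exon length, and these genes had between 5 and 30 and between 3 and 12 counts per mouse, against 359 to 616 for *Nos3*.

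*Klf2* (chromosome 8, 72319033 to 72321656, plus strand) varied most of the 10 genes, with a coefficient of variation of 46.1% over the 10 mice. It was at 4.80, 15, 6.66, 4.78 and 8.53 CPM in AHRfl mice and at 13.4, 8.63, 4.28, 12.6 and 15.1 CPM in AHRmko mice. The mice fell to both ends of the range in each genotype, with AHRfl mouse 12 and AHRmko mouse 34 the highest and AHRmko mouse 19 the lowest. The log2 fold change of 0.44 (SE 0.410, 95% interval -0.48 to 1.37, edgeR adjusted p = 0.886) was within this spread. With each mouse left out in turn it ran from 0.29 to 0.81.

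*Piezo1* (chromosome 8, 122481698 to 122551329, minus strand) was at 15.5, 14.3, 14.9, 17.6 and 14.2 CPM in AHRfl mice and at 22.4, 19.7, 23.7, 16.3 and 25.1 CPM in AHRmko mice. In 4 of the 5 AHRmko mice the level was above that of every AHRfl mouse, and AHRmko mouse 22 lay below AHRfl mouse 15. The means were 15.3 ± 1.38 CPM (SD, n = 5) and 21.5 ± 3.50 CPM (SD, n = 5), a log2 fold change of 0.49. Since the gene was chosen from this difference, no p is given, and the values describe these mice. Leaving out each mouse gave 0.42 to 0.57. With endothelial content or the slow-fibre score as a covariate the log2 fold change stayed within 0.45 to 0.49, as it did in the other settings. These fits use the same mice that the gene was chosen from, so they do not test its difference.

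Part of the *Piezo1* locus is shared with another gene. Exons of *Ctu2*, a tRNA-modifying enzyme on the opposite strand, cover 2441 nt of *Piezo1* exons, or 24.6% of their length. The sources give counting by strand only as a condition on the library preparation, and do not state whether it was met. *Ctu2* had between 247 and 361 counts per mouse, against 460 to 853 for *Piezo1*, and stood at 8.54 ± 1.30 CPM (SD, n = 5) in AHRfl and 7.55 ± 0.783 CPM (SD, n = 5) in AHRmko muscle. Its log2 fold change of -0.18 had the opposite sign to that of *Piezo1* (edgeR adjusted p = 0.826).

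**Figure D2:**
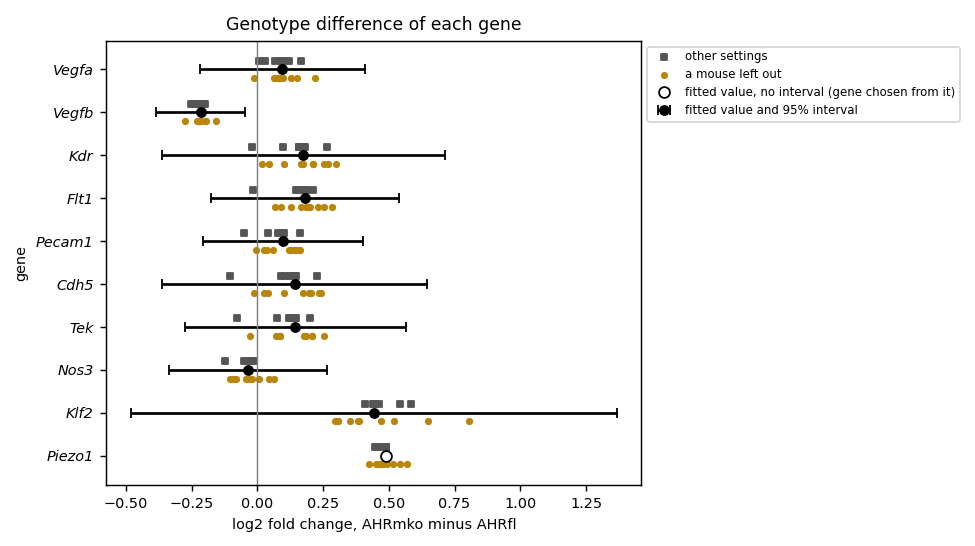
Log2 fold change of each gene, AHRmko minus AHRfl (horizontal axis). Black points with bars are fitted values with 95% intervals, the open circle is *Piezo1*, shown without an interval because it was chosen from this difference, grey squares are other settings and gold points leave out 1 mouse. The intervals of all tested genes but *Vegfb* span 0, and *Vegfb* did not pass after adjustment over all genes. The grey and gold points of *Piezo1* come from the mice it was chosen from and do not test its difference.

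In all, edgeR called 0 of the 9 genes tested at an adjusted p under 0.05, with 0 called by DESeq2 and 0 by limma-voom, against a background of 0.0068% of all genes tested in edgeR, 0.193% in DESeq2 and 0.0068% in limma-voom. *Vegfb* was the 1 of the 9 with an unadjusted p under 0.05 in edgeR. The groups of 0 of the 10 genes were without overlap, against 1.4% of all genes tested.

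Other genes of the pathway were taken as lists. Of the 31 further vascular genes (VEGF family and receptors, angiopoietins and TIE1, capillary markers and endothelial transcription factors), 0 had an adjusted p under 0.05, and the lowest edgeR value was 0.683. At an unadjusted p under 0.05 there were 2, *Flt4* and *Podxl*, where the background was 6.61%. Their median log2 fold change was 0.15, against 0.01 over all genes tested. Of the 31, 28 had a fitted log2 fold change above 0, as had 7 of the 9 genes tested between the genotypes (*Piezo1* left out) and 51.5% of all genes tested, a count made after the values were seen. These genes vary together across the same mice and are not independent. Without AHRmko mouse 8 the counts were 21 of 31 and 4 of 9. The endothelial covariate is made of the 14 capillary genes among the 31. Of the 17 genes outside it, 15 were above 0, and 8 were with the covariate in the fit and 9 without AHRmko mouse 8. Of the 9, 2 were above 0 with the covariate. All of these are vascular genes, so the covariate can take up a difference they share.

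Within the lists, the largest differences were small or uncertain, and none passed the test. Among the VEGF family and its receptors, all 6 were tested, and *Flt4*, the receptor of lymphatic endothelium, had the largest log2 fold change, 0.47 (SE 0.196, edgeR adjusted p = 0.718), with AHRmko mouse 8 at 10.5 CPM and the other 9 mice between 3.78 and 6.38 CPM. *Ptprb*, the phosphatase that acts on TIE2, led the 4 angiopoietin and TIE genes at 0.24 (edgeR adjusted p = 0.868). *Podxl*, a sialomucin of the endothelial surface, led the 14 capillary genes at 0.35 (edgeR adjusted p = 0.683), and *Sox17* led the 7 transcription factors at 0.34 (edgeR adjusted p = 0.813).

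The genes listed for flow were also without a call. This list holds genes of flow sensing and signalling beside flow-responsive genes. Of 9 tested, 5 had a log2 fold change above 0 and 4 below, so this is not a count of flow-induced genes alone. *Thbd*, the thrombin receptor thrombomodulin and a target of KLF2, had the largest, 0.69 (SE 0.295, edgeR adjusted p = 0.738), from 15.5 ± 4.92 CPM (SD, n = 5) in AHRfl to 24.9 ± 9.59 CPM (SD, n = 5) in AHRmko muscle. Among the 9 genes that govern hypoxia signalling and *Vegfa* transcription, 4 were above 0 and 5 below, and *Vhl*, the ubiquitin ligase subunit that marks HIF-alpha for degradation, had the largest, -0.30 (edgeR adjusted p = 0.772). The summed level of these 9 genes ran from 768 to 867 CPM in AHRfl and from 769 to 889.7 CPM in AHRmko mice.

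*Kdr*, *Flt1*, *Pecam1*, *Cdh5* and *Tek* varied together across the mice. Levels were centred within genotype, so that the genotype difference has no part in these relations, and all 45 pairs of the 10 genes were compared over the 10 mice. Of the 10 pairs among *Kdr*, *Flt1*, *Pecam1*, *Cdh5* and *Tek*, 9 passed a two-sided exact permutation test of Pearson's r with Benjamini-Hochberg adjustment over the 45 pairs, and r was between 0.74 and 0.95. The pair with the highest r was *Pecam1* and *Tek* (r = 0.95, exact p = 0.000833, adjusted p = 0.00625, Spearman's rho = 0.90 with exact p = 0.000486, n = 10). *Kdr* and *Cdh5* had r = 0.94 and rho = 0.98 (exact p = 0.000139 and 0.000347, adjusted p = 0.00313 for r, n = 10). Without the 2 mice farthest from the median of the first gene, r was 0.90 for *Pecam1* and *Tek* and 0.94 for *Kdr* and *Cdh5*.

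The exception among the 5 was the pair of VEGF receptors. *Kdr* and *Flt1* had r = 0.74 (exact p = 0.0360, adjusted p = 0.116) and rho = 0.83 (exact p = 0.0147, adjusted p = 0.0662), and r was 0.93 without the 2 mice farthest in *Kdr*. In AHRmko mouse 19 *Kdr* was far lower, relative to its genotype mean, than *Flt1*. With each mouse left out in turn, 6 pairs passed in all 10 fits: *Flt1* with *Pecam1* and with *Tek*, *Kdr* with *Cdh5* and with *Pecam1*, and *Pecam1* with *Cdh5* and with *Tek*. The pairs *Cdh5* and *Tek*, *Flt1* and *Cdh5*, and *Kdr* and *Tek* passed in 8, 2 and 1 of the 10.

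**Figure D3:**
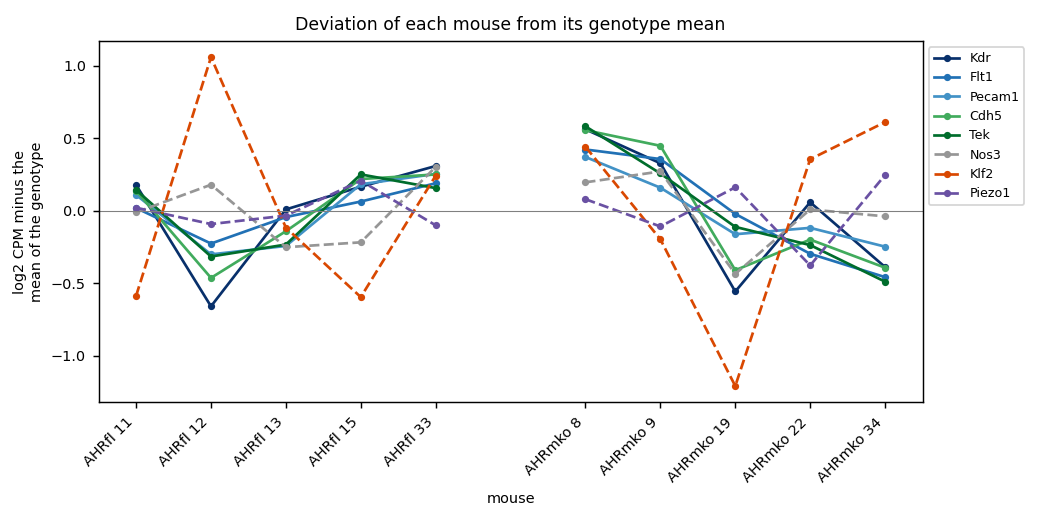
Log2 CPM of each of 8 genes minus its genotype mean (vertical axis) in each mouse (horizontal axis, mice named by genotype and animal number). Solid lines are the 5 genes that vary together, dashed lines the others, and the lines join points of a gene without implying an order of mice. The 5 solid lines are highest in AHRmko mouse 8, while *Klf2* is highest in AHRfl mouse 12 and lowest in AHRmko mouse 19.

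*Nos3*, *Klf2* and *Piezo1* did not share this pattern at a level that passed the test. Of their 15 pairs with the 5 genes, 0 passed the exact permutation test, r was between -0.29 and 0.49, and the lowest adjusted p was 0.384. With a mouse left out, *Kdr* and *Nos3* passed in 1 of the 10 fits, with r from 0.15 to 0.79 over these fits. Within genotypes, r of this pair was -0.18 in AHRfl and 0.88 in AHRmko mice, a difference that was not tested. Outside the 5 genes, 1 pair passed in all, *Vegfb* and *Kdr* (r = 0.65, exact p = 0.00757, adjusted p = 0.0378), and its rho of 0.59 did not pass (adjusted p = 0.233). It passed in 2 of the 10 fits with a mouse left out. *Vegfa* and *Vegfb* had r = 0.76 but rho = 0.25 (exact p = 0.0940 and 0.549, adjusted p = 0.211 and 0.686), and r was -0.47 without the 2 mice farthest in *Vegfa*, AHRfl mice 12 and 33 holding the lowest and highest *Vegfa*. With library size alone in place of TMM, 19 of the 45 pairs passed.

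**Figure D4:**
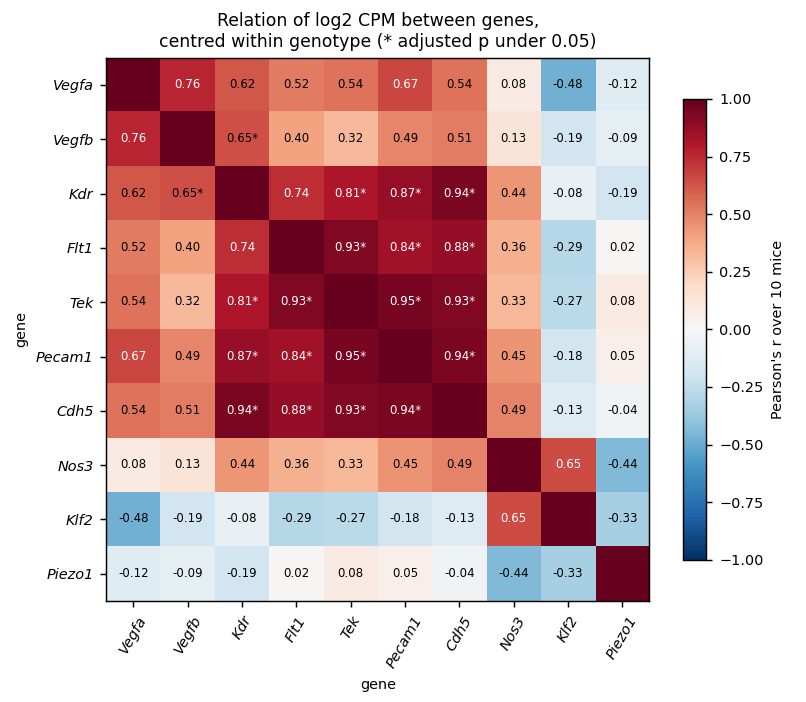
Pearson's r between each pair of the 10 genes over 10 mice, from log2 CPM centred within genotype (colour scale from -1 to 1, values printed). Asterisks mark pairs with an adjusted p under 0.05 in the exact permutation test, 9 of them among *Kdr*, *Flt1*, *Tek*, *Pecam1* and *Cdh5*.

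Some of these 5 genes also varied with markers of the mural cells of the vessel wall. Each of the 10 genes was compared with the mean log2 CPM of 3 lists, mural cells (pericytes and smooth muscle), slow fibres and immediate-early genes, which makes 30 relations. *Pecam1* (r = 0.89), *Tek* (r = 0.87) and *Cdh5* (r = 0.79) rose with the mural list, and *Tek* (r = -0.76) and *Cdh5* (r = -0.74) fell as the immediate-early list rose (exact permutation test, adjusted p = 0.0442 for each, n = 10). Spearman's rho was 0.89, 0.82 and 0.76 for the first 3 and -0.79 and -0.73 for the last 2 (adjusted p from 0.0454 to 0.0766). Without the 2 mice farthest from the median of the gene, r was between 0.77 and 0.84 for the mural list and -0.88 and -0.85 for the immediate-early list. None of the 30 relations passed with a mouse left out, the lowest adjusted p of the exact permutation test being 0.0521.

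The slow-fibre list varied from 1.5 to 7.8 mean log2 CPM across mice, and 0 of its 10 relations passed. Slow fibres are rich in capillaries, and the highest r were 0.64 for *Vegfa* and 0.60 for *Pecam1* (adjusted p = 0.195 for each, exact permutation test, n = 10). Within AHRfl mice r with this list was 0.80 for *Kdr*, 0.88 for *Flt1*, 0.88 for *Pecam1*, 0.89 for *Cdh5* and 0.87 for *Tek*. Within AHRmko mice it was 0.25, 0.02, 0.24, 0.05 and 0.24 in the same order. These values within genotypes (n = 5 each) were not tested. *Klf2* had r = 0.60 with the immediate-early list (adjusted p = 0.195). The mean log2 CPM of the immediate-early list was highest in AHRfl mouse 12 at 5.72 and AHRmko mouse 34 at 5.66, the same mice that had the highest *Klf2*, and lowest in AHRfl mouse 15 at 3.16.

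The genes whose pattern was most like these were searched among 10065 genes with at least 100 counts on average, as a description over 10 mice. No test was made, and the highest of so many r over 10 mice can be high for unrelated genes too. Closest to the mean of *Kdr*, *Flt1*, *Pecam1*, *Cdh5*, *Tek* and *Nos3* were *Cxcl12*, a chemokine (r = 0.99), *Aqp7*, an aquaglyceroporin (0.97), *Glce* (0.97), *Pgm5* (0.96) and *Kctd10* (0.96). Closest to *Vegfa* were *Pank1*, a kinase of coenzyme A synthesis (0.98), *Isoc2b* (0.95), the mitochondrially encoded respiratory subunits *mt-Co2* (0.94) and *mt-Atp6* (0.93), and *Dok5* (0.93). Closest to *Klf2* was its relative *Klf4* (0.97), then *Ing3* (0.94), *Samd1* (0.93), *Akap12* (0.92) and the stress-induced kinase *Sgk1* (0.92). Closest to *Piezo1* were *Asb12* (0.96), *2610001J05Rik* (0.92), *Jmjd6* (0.89), *Zfand3* (0.87) and *Desi1* (0.86).

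Markers of other cells that the muscle holds overlapped between genotypes in every list. The summed level of the 6 blood genes ran from 105 to 322 CPM in AHRfl and from 143 to 483 CPM in AHRmko mice, led by *Hba-a1* at a log2 fold change of 0.90 (edgeR adjusted p = 0.815). The 4 lymphatic genes summed to 5.27 to 9.77 CPM and 4.64 to 10.9 CPM, *Ccl21a* was at 0 counts in every mouse, which allows up to 0.0987 CPM, and *Prox1* led at 0.53 (edgeR adjusted p = 0.888). The 5 macrophage genes summed to 12.7 to 22 CPM and 10.1 to 28.1 CPM, led by *Adgre1* at 0.45 (edgeR adjusted p = 0.879). The 8 mural genes summed to 449 to 593 CPM and 462 to 675 CPM, led by *Rgs5* at 0.16 (edgeR adjusted p = 0.907). Of these 8, 3 had a log2 fold change above 0 and 5 below, with a median of -0.04. Above and below 0 were 5 and 1 of the blood genes and 4 and 1 of the macrophage genes. All 3 lymphatic genes tested were above 0.

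Lists for connective tissue and fibres overlapped as well. The 5 fibroblast genes summed to 239.8 to 425 CPM in AHRfl and 241 to 456 CPM in AHRmko mice, led by *Col3a1* at -0.35 (edgeR adjusted p = 0.774), and the 4 adipocyte genes to 8.01 to 54.2 CPM and 6.31 to 51.6 CPM, led by *Adipoq* at 0.50 (edgeR adjusted p = 0.938), with *Lep* too low to be tested. The 6 slow-fibre genes ran from 21.1 to 1449.8 CPM and from 151 to 1668 CPM, led by *Myh7* at 0.64 (edgeR adjusted p = 0.965). Among 8 genes of fast fibres and of myofibres in general (*Acta1* is expressed in slow and fast fibres alike) *Acta1* had the largest log2 fold change, 0.13 (edgeR adjusted p = 0.815), and among the 10 immediate-early genes *Atf3* at 0.52 (edgeR adjusted p = 0.953). Of these 10, 5 were above 0 and 5 below. Above and below 0 were 1 and 4 of the fibroblast genes and 7 and 1 of the 8 fast-fibre and myofibre genes. All 6 slow-fibre genes and all 3 adipocyte genes tested were above 0. The part of these cells and fibres in the levels of the 10 genes was not tested beyond the relations and covariates given.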

How the data were processed

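The authors used Trimmomatic 0.36 on poly(A)-selected paired-end reads, STAR 2.5.2b with GRCm38 for mapping, and counted unique reads on exons with featureCounts. They deposited raw counts per Ensembl gene, 1 column per mouse, not normalized. The supplement gives counting by strand only for the case of a strand-specific library preparation. Whether the preparation was strand-specific is not given in the sources used here. Of 49315 genes, 48970 could be named. The tamoxifen interval and the harvest time are those of the labels, and the paper's text gives other values in places. The sex of the mice comes from the paper. The labels name the mice by animal number. P-values of the genotype tests set the difference against the variation between mice, with 5 mice in each genotype.

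The counts were analysed with edgeR 4.0.16 in R 4.3.3, with filterByExpr (minimum count 10, minimum total 15), TMM and robust quasi-likelihood tests (glmQLFTest). P-values were adjusted by Benjamini-Hochberg over 14714 genes, with a threshold of 0.05. The paper's methods name the DESeq2 Wald test, which was run as an alternative (DESeq2 1.42.0), as was limma-voom (limma 3.58.1). The scripts were tested on simulated data. CPM are TMM-normalized, log2 CPM used a prior count of 2, and 95% intervals come from the fit. Floors of 3 counts cover counting error only. Positions, exon lengths and overlaps are from GENCODE for GRCm38, promoters from RefSeq. Relations over mice used exact permutation within genotype (14400 arrangements, smallest p 6.94e-05), in Python 3.11.15 with SciPy 1.17.1.

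The 10 genes and the other lists were chosen with earlier results of these data known. The genes named are all 10, and in each other list every gene past the adjusted threshold, the tested gene with the largest absolute log2 fold change and markers at 0, and for the search of alike patterns the 5 genes with the highest r. *Ctu2*, *Atg9b*, *Gm15587*, *Klf4* and the numbers of single mice were named after their values were seen. A covariate for *Xist* counts being present and the counts of genes above 0 were added after the data were seen.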

Additional observations from a re-analysis of the deposited data

How the results depend on the processing

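The count of genes differing between the genotypes was 21 with the DESeq2 Wald test, 5 with no filter on low counts and 2 with a slow-fibre covariate, and 1 to 6 with a mouse left out (6 without AHRmko mouse 34). Among the 9 genes tested it was 0 in every alternative run, with a mouse left out included. With endothelial content as a covariate, the log2 fold changes of *Kdr*, *Flt1*, *Pecam1*, *Cdh5* and *Tek* were -0.0193, -0.0155, -0.0510, -0.102 and -0.0779, and 2 of the 9 genes and 8 of the 17 vascular genes outside the capillary list were above 0. The covariate is the mean of 14 capillary genes, which mark the same cells, so it can take up a difference they share. Leaving out a mouse moved the log2 fold change from -0.0142 to 0.220 for *Vegfa* (below 0 without AHRfl mouse 12), from -0.104 to 0.0626 for *Nos3* (0.00809 without AHRfl mouse 12, 0.0458 without AHRfl mouse 33, 0.0626 without AHRmko mouse 19), and from -0.00514 to 0.163, -0.0128 to 0.241 and -0.0259 to 0.252 for *Pecam1*, *Cdh5* and *Tek* (lowest without AHRmko mouse 8). The genes above 0 then numbered 4 to 8 of the 9, 21 to 29 of the 31 and 9 to 16 of the 17 (4, 21 and 9 without AHRmko mouse 8). Of 200 values of the 10 genes under alternatives, 12 changed direction, and 0 of those of the 9 genes tested crossed the threshold. Relations between the 10 genes numbered 19 with library size only and 6 to 15 with a mouse left out (6 without AHRmko mouse 8 and 6 without AHRmko mouse 9). Relations to the marker lists numbered 8 with library size only and 0 to 0 with a mouse left out. The causes of these changes were not tested. No paired analysis was possible because no animal number occurs in both genotypes. Leaving out libraries against the male label gave no value, since all libraries held Y-linked counts.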
